A study of Mus musculus with 9 samples.

Results

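Glycolysis and the hypoxia response were followed in isolated mouse pancreatic islets through 32 genes, chosen by name: glucose and lactate carriers, glycolytic enzymes, the oxygen-regulated subunit of hypoxia-inducible factor 1 (HIF-1), prolyl hydroxylases that control it, and transcripts that HIF-1 is known to raise. The deposited table of 56748 genes holds 33 rows with these names, because Aldoa is listed under 2 gene IDs, and all 33 rows had enough counts to be tested. The choice was by name, with no threshold on a measured value, but it was made with earlier results of these data known. Primary islets of wild-type C57bl/6 mice were sequenced as total RNA in 3 groups of 3 libraries. Particle islets were exposed for 48 h to a cocktail of IL-1beta, TNF-alpha and IL-6 and received PD-G-MSNPs, which are polydopamine-coated mesoporous silica nanoparticles. Inflamed islets were exposed to the same cytokines without particles, and control islets were left untreated. No library had particles without cytokines. The age and sex of the mice, and whether islets were pooled between animals, are not given in the sources used here.

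Glycolysis splits glucose into pyruvate, yielding ATP without oxygen, and pyruvate is then reduced to lactate or oxidised in mitochondria. In beta cells this flux is coupled to insulin release, and glucose normally enters through a low-affinity carrier (GLUT2, Slc2a2), while lactate dehydrogenase A and the lactate carrier MCT1 are kept low. HIF-1 pairs the subunit HIF-1 alpha (Hif1a) with ARNT. In oxygenated cells the prolyl hydroxylases (Egln genes) mark HIF-1 alpha for destruction through the VHL protein, and in low oxygen the stabilised factor binds DNA at the core letters ACGTG or GCGTG and raises glycolytic genes and others such as Vegfa.

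The DNA just upstream of the genes with the clearest changes is shown because those genes went in opposite directions while sharing these letters. Each line gives the 150 bases before the most upstream RefSeq start of the gene, 5′ to 3′ on the gene's own strand, from the RefSeq promoter table of build GRCm38.p6. Capitals mark ACGTG or GCGTG read on either strand, so that CACGT and CACGC are the same letters read from the other strand. The letters CACGTG, which are also an E-box, count once on each strand. The 4 genes higher in inflamed than in control islets are Pfkfb3, Slc2a1, Adm and Hk2, and the 3 lower ones are Pfkm, Ankrd37 and Pdk1. They had the smallest adjusted p-values in each direction.
Pfkfb3 (chr2:11553930-11554079, minus strand): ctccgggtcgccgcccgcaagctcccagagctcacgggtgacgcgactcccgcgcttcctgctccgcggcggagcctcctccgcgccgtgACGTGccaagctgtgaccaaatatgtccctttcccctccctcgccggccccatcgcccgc
Slc2a1 (chr4:119108595-119108744, plus strand): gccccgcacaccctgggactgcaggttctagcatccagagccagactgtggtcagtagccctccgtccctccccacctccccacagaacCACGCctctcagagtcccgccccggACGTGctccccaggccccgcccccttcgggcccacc
Adm (chr7:110627507-110627656, plus strand): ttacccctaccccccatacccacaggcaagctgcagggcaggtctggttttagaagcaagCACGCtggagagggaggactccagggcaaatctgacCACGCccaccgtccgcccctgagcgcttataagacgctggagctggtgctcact
Hk2 (chr6:82774455-82774604, minus strand): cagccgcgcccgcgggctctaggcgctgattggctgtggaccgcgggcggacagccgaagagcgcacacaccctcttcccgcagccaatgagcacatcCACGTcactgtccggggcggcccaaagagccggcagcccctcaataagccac
Pfkm (chr15:98092439-98092588, plus strand): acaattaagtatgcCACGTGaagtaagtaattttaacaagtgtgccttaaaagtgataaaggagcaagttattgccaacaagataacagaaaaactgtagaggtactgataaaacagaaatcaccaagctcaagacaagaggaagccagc
Ankrd37 (chr8:45999851-46000000, minus strand): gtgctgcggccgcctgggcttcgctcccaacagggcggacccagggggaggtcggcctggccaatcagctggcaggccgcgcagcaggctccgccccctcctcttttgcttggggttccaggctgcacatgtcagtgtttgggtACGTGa
Pdk1 (chr2:71873074-71873223, plus strand): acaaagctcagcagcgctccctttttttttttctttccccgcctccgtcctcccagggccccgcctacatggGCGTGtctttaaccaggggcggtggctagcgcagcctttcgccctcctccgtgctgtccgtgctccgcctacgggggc

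A match was present in 23 of the 31 members found in the promoter table, or 74.2%. Over the 12040 tested genes with an entry there it was present in 42.1%, and over all 27025 entries in 28.8%. By call between inflamed and control islets, 7 of 8 higher members, 5 of 6 lower members and 11 of 17 members not called had a match. The letters therefore stood upstream of members that rose, members that fell and members that were not called, and a match is a description of the window, not of binding.

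Library totals were between 17832949 and 55865759 counts, and the 2 insulin genes took 8.55 to 21.6% of counts in particle islets, 13.0 to 21.2% in inflamed islets and 28.5 to 29.2% in control islets. Of 10 beta cell markers, 9 were lower in inflamed than in control islets, and their summed level was 87476 to 239987 CPM (counts relative to the library's scaled total) in particle islets, 123462 to 228760 in inflamed islets and 341483 to 359779 in control islets. Of 9 tested macrophage markers, 8 were higher in inflamed than in control islets, with a summed level of 331 to 489 CPM in particle, 990 to 1077 in inflamed and 309 to 380 in control islets. Mrc1 was below 1 CPM in every library. Of 7 endothelial markers, 6 were lower in inflamed than in control islets, with sums of 7.32 to 31.4, 6.04 to 10.2 and 29.8 to 74.0 CPM in particle, inflamed and control islets. All 5 alpha cell markers were lower in inflamed than in control islets, with sums of 106 to 7644 CPM in particle, 101 to 487 in inflamed and 7315 to 26775 CPM in control islets. So were 2 of 3 tested delta cell markers (sums of 50.7 to 1633, 118 to 332 and 1087 to 2651 CPM in particle, inflamed and control islets) and 2 of 6 stellate cell markers (8.40 to 82.9, 10.7 to 45.6 and 67.2 to 249 CPM). Acinar markers varied within groups, from 5.80 to 3170 CPM in particle, 27.5 to 2657 in inflamed and 22.4 to 1363 CPM in control islets, and none of 7 was called. Among the glycolysis and hypoxia genes, control 3 was the highest control library in 24 of 33 rows, where it was the highest in 23.2% of all tested genes. In RNA of whole islets, fewer cells of a type and less RNA per cell cannot be told apart, and the part of these shifts in any result below was not tested.

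Among the glycolysis and hypoxia genes, inflamed islets differed from control islets in both directions. Of the 33 rows, 8 were higher in inflamed islets (Slc2a1, Slc16a3, Hk2, Pfkfb3, Eno1, Hif1a, Adm and P4ha1), 6 were lower (Pfkm, Aldoc, Ldhb, Pdk1, Vegfa and Ankrd37) and 19 did not pass an adjusted p of 0.05. Each p is from the quasi-likelihood test of edgeR, adjusted by Benjamini-Hochberg over the 17276 genes tested. Among all tested genes, 20.7% were called higher and 19% lower in this comparison, or 39.6% in either direction, so the number of members called was close to that of genes at large with all 9 libraries in the fit. This did not hold without control 3, where 18 of the 33 rows were called (54.5%), beside 12.6% of 18015 tested genes higher and 13.3% lower. Control 3 was the highest control in most of these same rows. Leaving it out lowers their control mean, so that fit is no independent check. Without control 1, 10 of 33 rows were called (30.3%), beside 14.5% of all tested genes higher and 14.9% lower. Without control 2, 11 of 33 were called (33.3%), beside 14.4% higher and 14.4% lower. The median log2 fold change was 0.51 over the 33 rows and 0.05 over all tested genes. All 3 inflamed libraries lay above all 3 control libraries in 10 rows and below them in 6, where the shares over all tested genes were 28.3% and 28.5%. In particle against control islets 5 rows were higher (Slc2a1, Hk2, Pfkfb3, Adm and P4ha1) and 2 were lower (Pfkm and Ldhb), beside 11.4% and 5.92% of all tested genes (17.3% in either direction), and the comparison shares its control libraries with the first. In particle against inflamed islets no row was called in either direction, beside 0% of all tested genes, and 4 rows had an unadjusted p under 0.05, beside 15.1% of all tested genes. These were 3 higher and 1 lower, where all tested genes gave 9.58% and 5.49%. DESeq2 called 1 row in that comparison, Ankrd37, and 487 higher and 296 lower genes in the whole table.

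**Figure D1:**
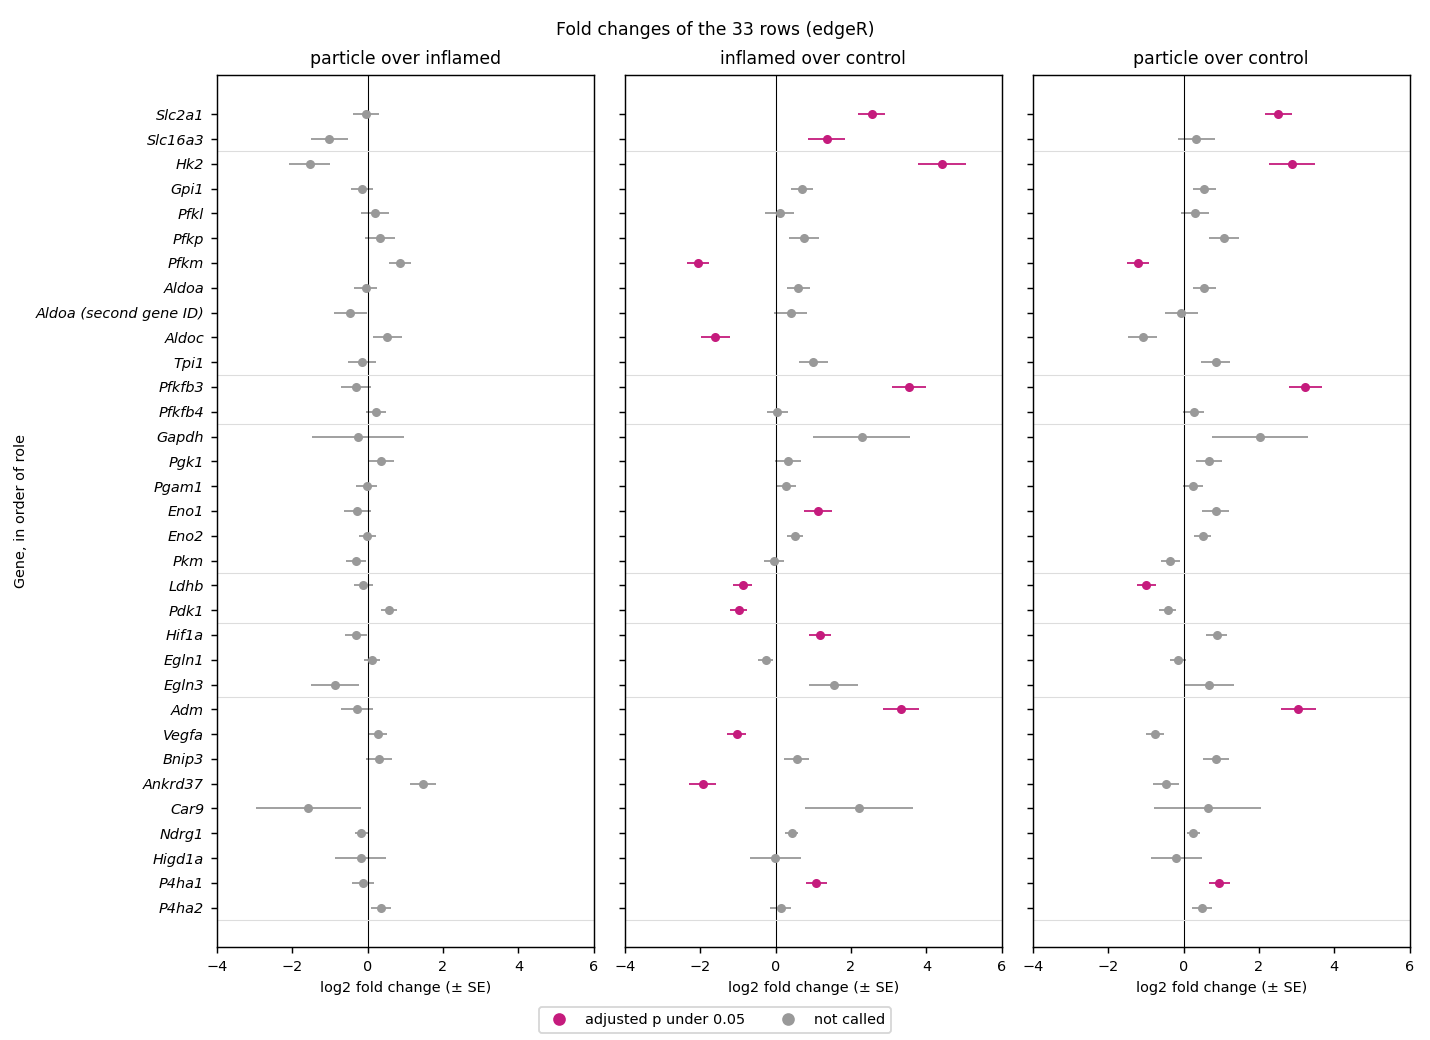
Log2 fold changes with their standard errors for the 33 rows in the 3 comparisons, genes running down the page in order of role. Coloured points passed an adjusted p of 0.05: none between particle and inflamed islets, 14 between inflamed and control islets and 7 between particle and control islets.

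Both carriers, for glucose and for lactate, were higher in inflamed than in control islets. Slc2a1, which encodes the widespread high-affinity glucose carrier GLUT1 (ENSMUSG00000028645, GRCm39 chromosome 4, 118965908 to 118995180), had 265, 175 and 168 CPM in the 3 particle libraries, 221, 199 and 209.8 CPM in the inflamed libraries and 22.5, 25.3 and 59.3 CPM in the control libraries. Every cytokine-exposed library, with or without particles, lay above every control library. The log2 fold change was 2.56 (SE 0.36, adjusted p = 4.73e-04) in inflamed against control islets and 2.51 (SE 0.36, adjusted p = 9.53e-04) in particle against control islets. Particle and inflamed libraries overlapped. Slc16a3, the lactate exporter MCT4 of glycolytic cells (ENSMUSG00000025161, chromosome 11, 120839306 to 120851694), had 9.25, 10.7 and 7.71 CPM in particle, 23.5, 12.1 and 20.4 CPM in inflamed and 2.56, 5.74 and 13.4 CPM in control islets. Its inflamed and control libraries overlapped. Its log2 fold change in inflamed against control islets was 1.36 (SE 0.49, adjusted p = 0.0454), and this call was lost in 11 of 19 alternative settings, with an adjusted p of up to 0.151. Its value moved to 2.12 without control 3 and to 0.91 without control 1. The gene overlaps Csnk1d on the other strand, and the sources used here do not give whether counting used the strand.

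The early steps of glycolysis changed in both directions. Hk2, the inducible hexokinase that traps glucose as its 6-phosphate (ENSMUSG00000000628, chromosome 6, 82702006 to 82751435), had 3.39, 3.89 and 7.58 CPM in particle islets, 10.5, 13.1 and 19.5 CPM in inflamed islets and 0.124, 1.10 and 0.789 CPM in control islets. No 2 groups overlapped. In inflamed against control islets its log2 fold change was 4.42 (SE 0.63, adjusted p = 5.22e-04), and in particle against control islets 2.88 (SE 0.60, adjusted p = 0.0101). Its control counts were low, at 3, 24 and 22, so the size of these changes is uncertain. Over 19 alternative settings they ranged from 1.57 to 4.91 and from 0.68 to 3.36, with both calls kept. The 1.57 came from a fit on log2(FPKM + 1), where FPKM is the authors' per-length level. On log2(FPKM + 0.1) the inflamed against control value was 3.56, and fits on counts gave 3.88 to 4.91. Particle against inflamed gave -1.54 (SE 0.55), which did not pass (adjusted p = 0.221). The macrophage marker sum had the same order of groups between particle and inflamed islets. Between particle and control islets that sum overlapped (331 to 489 and 309 to 380 CPM), while Hk2 did not. The single macrophage markers split there. Of 9 tested, 1 was called higher and 1 lower in particle than in control islets, with a median log2 fold change of 0.52. The part of macrophages in the Hk2 values was not tested.

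Pfkfb3 encodes the bifunctional enzyme whose kinase side makes fructose 2,6-bisphosphate, the strongest activator of phosphofructokinase (ENSMUSG00000026773, chromosome 2, 11476244 to 11558888). Its levels were 90.7, 33.8 and 81.7 CPM in particle islets, 81.2, 87.4 and 86.0 CPM in inflamed islets and 3.51, 7.54 and 10.9 CPM in control islets. All cytokine-exposed libraries were above all controls, and particle 2 was the lowest of them. The log2 fold change was 3.53 (SE 0.44, adjusted p = 2.54e-04) in inflamed and 3.23 (SE 0.44, adjusted p = 6.84e-04) in particle against control islets. The sister enzyme Pfkfb4 ranged from 7.66 to 13.3 CPM in particle, 7.48 to 10.2 CPM in inflamed and 7.63 to 10.1 CPM in control islets and was not called.

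Pfkm, the muscle-type phosphofructokinase (ENSMUSG00000033065, chromosome 15, 97990470 to 98030332), went the other way, with 49.9, 61.6 and 26.3 CPM in particle, 27.7, 29.0 and 19.5 CPM in inflamed and 111, 99.0 and 108 CPM in control islets. Every control library was above every exposed library, and particle and inflamed libraries overlapped at particle 3. Its log2 fold change was -2.06 (SE 0.29, adjusted p = 4.98e-04) in inflamed and -1.21 (SE 0.29, adjusted p = 0.0176) in particle against control islets, and the second call was lost without control 3 (adjusted p = 0.0514). Particle against inflamed islets gave 0.86 (SE 0.28, adjusted p = 0.206), which passed only without particle 3 (adjusted p = 0.0223). That fit called 3.56% of all tested genes higher and 1.71% lower, beside 0% with all 9 libraries. Pfkm overlaps Senp1 on the other strand. The liver-type Pfkl had 147 to 308 CPM in particle, 167 to 231 CPM in inflamed and 119 to 317 CPM in control islets, and the platelet-type Pfkp 67.0 to 148, 74.1 to 80.8 and 24.7 to 75.6 CPM in the same order of groups. Neither was called.

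Of the other upper-pathway enzymes, Aldoc was called and Gpi1, Tpi1 and Aldoa were not. Aldoc, the brain-type aldolase (ENSMUSG00000017390, chromosome 11, 78213794 to 78218607), had 9.84, 17.1 and 6.31 CPM in particle, 6.60, 6.55 and 9.98 CPM in inflamed and 19.7, 16.3 and 34.2 CPM in control islets, and fell in inflamed against control islets by 1.60 on the log2 scale (SE 0.39, adjusted p = 0.00853). Particle 2 was above control 2, and particle against control did not pass (log2 fold change -1.08, adjusted p = 0.0766). Gpi1, which isomerises glucose 6-phosphate, had 442 to 674 CPM in particle, 567 to 665 CPM in inflamed and 249 to 553 CPM in control islets, with an adjusted p of 0.0849 for inflamed against control. The triose phosphate isomerase gene Tpi1 had 447 to 602, 449 to 779 and 168 to 484 CPM in particle, inflamed and control islets (adjusted p = 0.0559 for inflamed against control). That comparison passed for Tpi1 in 6 of 19 alternative settings and not in 13 (adjusted p 0.00679 to 0.211). The main aldolase gene Aldoa had 1599.8 to 1845, 1485 to 2179 and 770.0 to 1710.1 CPM in these groups and was not called. Its second listed gene (ENSMUSG00000114515, chromosome 7, 126399962 to 126408280) stayed between 1.29 and 2.74 CPM in all libraries.

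In the lower, energy-yielding part of the pathway 1 of 6 genes was called. Eno1, the widespread enolase (ENSMUSG00000063524, chromosome 4, 150321178 to 150333336), had 1076, 844 and 787 CPM in particle, 874, 924 and 1479.7 CPM in inflamed and 373, 318 and 809 CPM in control islets. All inflamed libraries were above all control libraries, control 3 standing near the lowest inflamed one. The log2 fold change of inflamed against control was 1.13 (SE 0.37, adjusted p = 0.0309), and the call was lost in 4 of 19 alternative settings, with an adjusted p of up to 0.128. Eno1 has a near-identical copy, Eno1b, that could share its reads. The neuron and endocrine enolase Eno2 had 134 to 172 CPM in particle, 125 to 177 in inflamed and 79.7 to 125 CPM in control islets, with an adjusted p of 0.0878 for inflamed against control.

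The ATP-forming kinase gene Pgk1 (192 to 297, 161 to 229 and 84.9 to 240.0 CPM in particle, inflamed and control islets) and the mutase gene Pgam1 (175 to 247, 203 to 217 and 122 to 254 CPM) were not called. Pkm, the pyruvate kinase gene of most tissues, had 820.1 to 1204 CPM in particle, 1097 to 1461 CPM in inflamed and 1037 to 1634 CPM in control islets and was not called, and gene counts do not separate its splice forms PKM1 and PKM2. Gapdh, often used as a reference transcript, had 25.1, 77.9 and 113 CPM in particle, 10.7, 8.66 and 237 CPM in inflamed and 13.2, 16.5 and 22.9 CPM in control islets. Inflamed 3 was far above the other 2 inflamed libraries, and its adjusted p for inflamed against control was 0.195. Gapdh has many near-identical pseudogenes and overlaps Iffo1 on the other strand, so its counts are uncertain.

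At the branch after pyruvate both members fell. Ldhb, the lactate dehydrogenase subunit of oxidative tissues (ENSMUSG00000030246, chromosome 6, 142435975 to 142453683), had 9.54, 11.6 and 9.84 CPM in particle, 12.7, 11.1 and 9.69 CPM in inflamed and 26.9, 16.1 and 18.1 CPM in control islets. All exposed libraries were below all controls, with log2 fold changes of -0.87 (SE 0.24, adjusted p = 0.0160) in inflamed and -0.98 (SE 0.25, adjusted p = 0.0219) in particle against control islets. Without control 1, the highest library, the first call was lost (adjusted p = 0.0695), and the second was lost in 4 of 19 settings (adjusted p up to 0.0783). Pdk1, a kinase that switches off pyruvate dehydrogenase and a known HIF-1 target (ENSMUSG00000006494, chromosome 2, 71703568 to 71734202), had 24.3, 19.4 and 21.0 CPM in particle, 13.8, 15.4 and 14.5 CPM in inflamed and 24.7, 23.7 and 38.0 CPM in control islets. It fell in inflamed against control islets by 0.98 on the log2 scale (SE 0.22, adjusted p = 0.00574). Every particle library was above every inflamed one, yet the log2 fold change of 0.56 (SE 0.22) did not pass (adjusted p = 0.266).

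**Figure D2:**
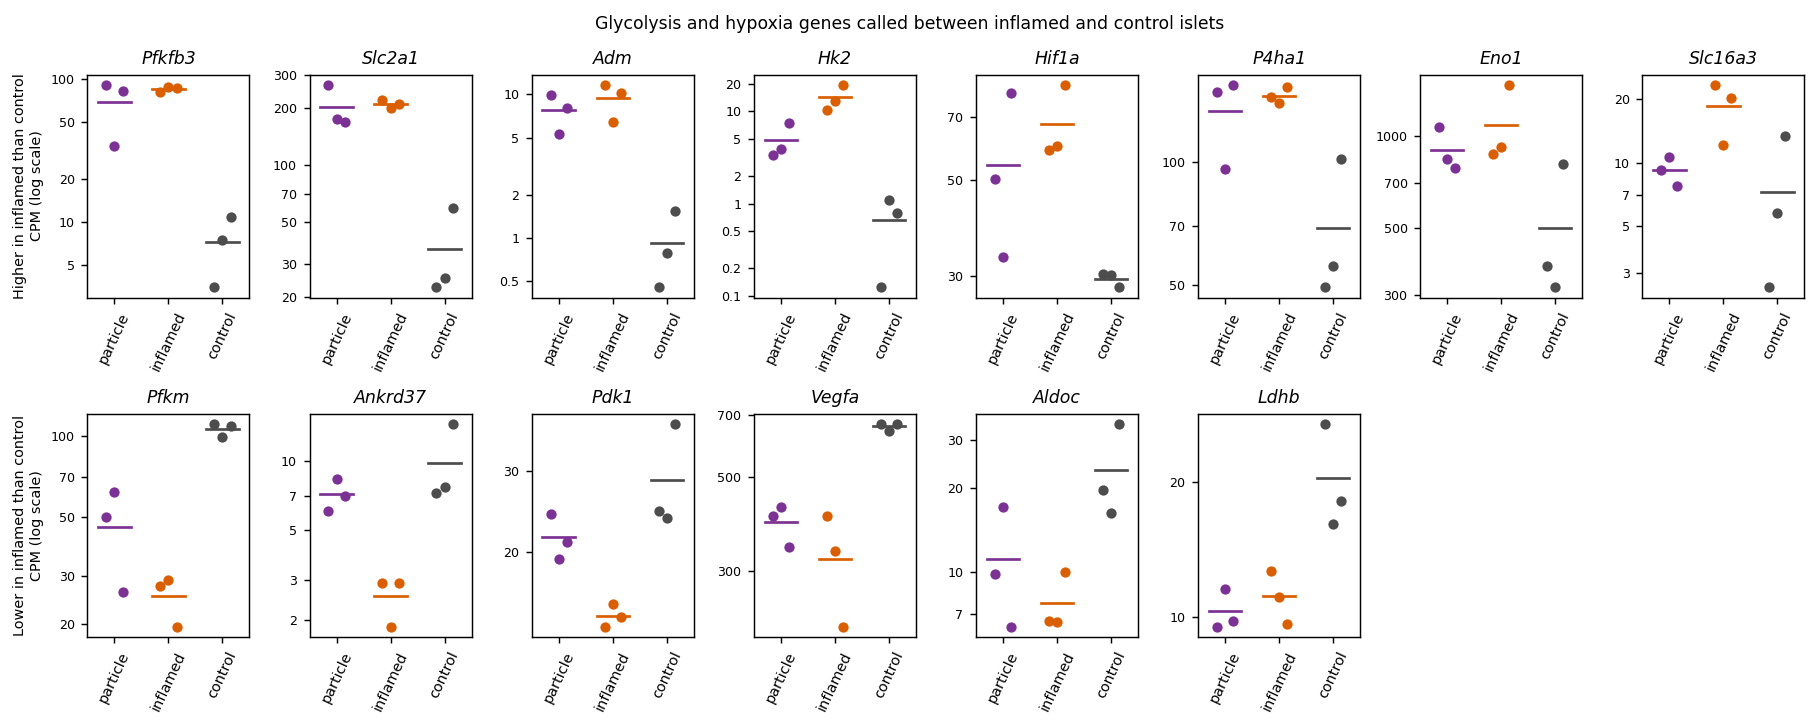
CPM on a log scale in each library (points) and group mean (lines) for the 14 genes called between inflamed and control islets, higher ones in the upper row and lower ones in the lower row. Slc2a1, Pfkfb3, Adm, Hk2 and Hif1a show every particle and inflamed library above every control library, and Ankrd37 shows inflamed libraries at 1.88 to 2.93 CPM below both other groups.

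The transcript of the oxygen-regulated factor itself rose. Hif1a (ENSMUSG00000021109, chromosome 12, 73948149 to 73994304) had 50.3, 33.2 and 79.3 CPM in particle, 58.7, 60.0 and 82.9 CPM in inflamed and 30.3, 30.1 and 28.2 CPM in control islets. The 3 controls were within 3 CPM of each other and below every exposed library. Inflamed against control gave 1.19 on the log2 scale (SE 0.29, adjusted p = 0.00771), and particle against control gave 0.88 (SE 0.28, adjusted p = 0.0557), just outside the threshold. The second passed in 4 of 19 alternative settings and not in 15 (adjusted p 0.00765 to 0.228). Transcript levels do not measure HIF-1 alpha protein, which is set mainly by its breakdown. Egln1, the main oxygen-sensing prolyl hydroxylase, had 53.8 to 79.9 CPM in particle, 58.4 to 64.6 CPM in inflamed and 63.2 to 90.3 CPM in control islets and was not called. Egln3, a hydroxylase that HIF-1 itself raises, had 9.0, 3.21 and 4.40 CPM in particle, 9.06, 4.49 and 16.4 CPM in inflamed and 1.11, 2.62 and 6.52 CPM in control islets (adjusted p = 0.0806 for inflamed against control).

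Known HIF-1 targets outside glycolysis split. Adm, which encodes the vasodilator peptide adrenomedullin (ENSMUSG00000030790, chromosome 7, 110226868 to 110229027), had 9.93, 5.30 and 8.01 CPM in particle, 11.7, 6.46 and 10.3 CPM in inflamed and 0.454, 0.781 and 1.54 CPM in control islets. Exposed and control libraries were well apart, at log2 fold changes of 3.34 (SE 0.48, adjusted p = 5.22e-04) for inflamed and 3.05 (SE 0.47, adjusted p = 0.00167) for particle against control. P4ha1, a collagen prolyl hydroxylase subunit (ENSMUSG00000019916, chromosome 10, 59159118 to 59209126), had 149, 96.6 and 155 CPM in particle, 144, 139.7 and 153 CPM in inflamed and 49.4, 55.6 and 102 CPM in control islets. It rose in inflamed against control islets (log2 fold change 1.08, SE 0.28, adjusted p = 0.0120), and the call was lost without control 1 or control 2 (adjusted p up to 0.0592). In particle against control islets the groups overlapped at particle 2 and control 3, and the call (0.95, SE 0.28, adjusted p = 0.0414) was lost in 9 of 19 settings (adjusted p up to 0.158). The paralog P4ha2 had 42.7 to 76.2, 40.1 to 47.8 and 28.9 to 53.2 CPM in particle, inflamed and control islets and was not called.

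Vegfa and Ankrd37 fell. Vegfa, the angiogenic factor through which beta cells sustain islet capillaries (ENSMUSG00000023951, chromosome 17, 46327919 to 46343295), had 405, 426 and 343 CPM in particle, 404, 336 and 223 CPM in inflamed and 665, 639 and 664 CPM in control islets. The controls were tightly grouped above all exposed libraries, with log2 fold changes of -1.03 (SE 0.24, adjusted p = 0.00684) in inflamed and -0.75 (SE 0.24, adjusted p = 0.0552) in particle against control islets. The second passed in 8 of 19 alternative settings and not in 11 (adjusted p 0.00406 to 0.181). The beta cell and endothelial marker sums given above were also lower in inflamed than in control islets, and their part in the Vegfa values was not tested. Ankrd37, an ankyrin repeat gene known as a HIF-1 target (ENSMUSG00000050914, chromosome 8, 46449939 to 46458744), had 6.05, 8.35 and 7.05 CPM in particle, 2.93, 1.88 and 2.91 CPM in inflamed and 7.22, 7.67 and 14.6 CPM in control islets. It fell in inflamed against control islets by 1.93 on the log2 scale (SE 0.36, adjusted p = 0.00201). All particle libraries were above all inflamed ones, at 1.47 on the log2 scale (SE 0.35) with an adjusted p of 0.126 in edgeR and 0.00912 in DESeq2. In that comparison DESeq2 called 2.82% of all tested genes higher and 1.71% lower. Ankrd37 overlaps Ufsp2 on the other strand, which had more counts.

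The other 4 members of this group were not called in any comparison. Bnip3, a mitophagy receptor, had 76.3 to 146 CPM in particle, 67.7 to 114 CPM in inflamed and 44.8 to 96.6 CPM in control islets. Ndrg1, a stress-responsive gene, had 139 to 176, 176 to 181 and 128 to 139.7 CPM in particle, inflamed and control islets, with an adjusted p of 0.0654 for inflamed against control although all inflamed libraries were above all controls. Car9, the tumour-associated carbonic anhydrase and a sensitive hypoxia marker, had 0, 2.29 and 1.26 CPM in particle, 0.929, 0.733 and 8.87 CPM in inflamed and 0.0413, 1.84 and 0.430 CPM in control islets. The count of 0 in particle 1 allows up to 0.148 CPM, for counting error only. Higd1a, a mitochondrial protein of the hypoxia response, ranged from 3.69 to 10.8, 2.98 to 10.8 and 1.90 to 12.8 CPM in the 3 groups in that order.

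Between particle and inflamed islets the members with the clearest separation went in both directions without a call. All 3 particle libraries were below all 3 inflamed libraries for Hk2 and Slc16a3 and above them for Pdk1 and Ankrd37. Over all tested genes such separation occurred in 6.82% downward and 8.87% upward. For Slc16a3 the log2 fold change was -1.02 (SE 0.48, adjusted p = 0.358). The 9 tested macrophage markers had unadjusted p-values under 0.05 and lower levels in particle than in inflamed islets. In the same comparison 6 of 10 beta cell markers and 2 of 5 alpha cell markers had unadjusted p-values under 0.05. All of these had higher levels in particle islets, and the median log2 fold changes over the lists were 1.58 and 3.43. All 3 particle libraries were above all 3 inflamed ones for only 3 of the 10 beta cell and 1 of the 5 alpha cell markers. Particle 2 was the highest particle library in both sums. Beta cell sums were 87476, 239987 and 149006 CPM in particle 1 to 3, and 123462 to 228760 CPM in inflamed islets. Alpha cell sums were 448, 7644 and 106 CPM in particle 1 to 3, and 101 to 487 CPM in inflamed islets. No marker of these 3 lists passed adjustment, and their part in the members' values was not tested.

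Levels of different genes were compared per length, as the authors' FPKM. In control islets Aldoa was the highest member at 413 ± 164 FPKM, followed by Pkm at 265 ± 59.7, Vegfa at 155 ± 1.66, Tpi1 at 105 ± 62.9 and Eno1 at 93.9 ± 50.4 FPKM (SD, n = 3 for all). Aldoa and Pkm differed by less than the SD of Aldoa, and from Vegfa downward these neighbours did not differ beyond their spread either. Hk2 at 0.115 ± 0.0861, Car9 at 0.342 ± 0.422 and Adm at 0.579 ± 0.349 FPKM were the lowest. In inflamed islets Aldoa was again first at 607 ± 119 FPKM, with Pkm at 248 ± 36.5, Tpi1 at 204 ± 64.7 and Eno1 at 199 ± 62.7 FPKM. Hk2, although it had a large fold change, was still at 2.36 ± 0.786 FPKM in inflamed islets, and Slc2a1 was at 58.4 ± 2.29 FPKM there against 10.3 ± 5.90 FPKM in control islets.

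Because several steps have more than 1 isozyme, the share of each in its family's summed FPKM was taken within each library, which no scaling between libraries can alter. Pfkm made up 24.3 ± 5.0% of phosphofructokinase FPKM in particle, 17.5 ± 4.80% in inflamed and 52.3 ± 12.5% in control islets (SD, n = 3 each). Pfkl was the main form in the exposed islets, at 62.7 ± 1.15% in particle and 69.4 ± 5.38% in inflamed, against 42.6 ± 11.2% in control islets. Ldhb made up 30.7 ± 3.21% of lactate dehydrogenase FPKM in particle, 15.2 ± 6.42% in inflamed and 66.5 ± 14.9% in control islets, the rest being Ldha. Particle, inflamed and control libraries did not overlap in that share. Of the summed FPKM of Hk1 and Hk2 alone, Hk2 made up 56.3 ± 9.998% in particle, 56.2 ± 16.5% in inflamed and 10.7 ± 8.79% in control islets. With Hk3 counted too, a sum added after the values were seen, the Hk2 share was 8.87 ± 3.19% in particle, 9.76 ± 4.02% in inflamed and 5.92 ± 4.23% in control islets. That share overlapped between all groups, and Hk3 made up 83.4 ± 7.61%, 81.1 ± 11.2% and 43.8 ± 16.8% in particle, inflamed and control islets. Aldoc made up 0.550 ± 0.241%, 0.377 ± 0.0397% and 1.73 ± 0.138% of aldolase FPKM in particle, inflamed and control islets. Of 21 exact two-sided permutation tests on shares, 13 gave p = 0.1, the smallest that 3 libraries against 3 allow, and 0.162 after Benjamini-Hochberg adjustment, so this test could not pass 0.05 for any share. Eno2 shares overlapped between all groups.

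**Figure D3:**
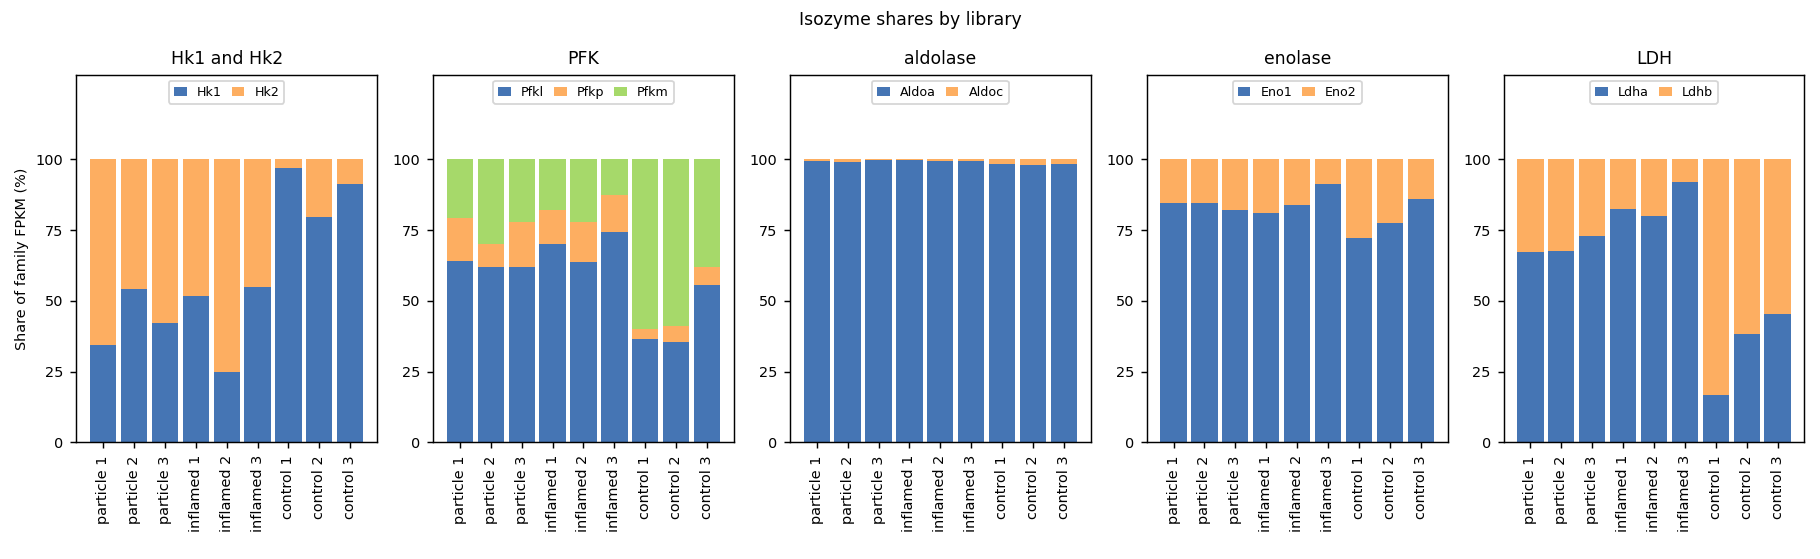
Share of each isozyme in the summed FPKM of the genes named in its panel (%), stacked, for each of the 9 libraries. The Pfkm share is 12.5 to 30.0% in particle and inflamed libraries and 37.9 to 60.0% in control libraries, and the Ldhb share is 7.96 to 32.8% in particle and inflamed libraries and 54.6 to 83.3% in control libraries.

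Genes of the same pathways outside the 32 were counted from 3 further lists, 67 of whose 70 genes were tested. Of 30 tested genes of glycolysis and transport, 4 were higher in inflamed than in control islets (Ldha, Slc16a1, Hk3 and Pdhb) and 11 lower (among them G6pc2, Pcx, Slc2a2, Eno3, Pdk2, Tigar, Gpd2, Bpgm, Pklr and Pfkfb2), with a median log2 fold change of -1.10 beside 0.05 over all tested genes, of which 20.7% were higher and 19% lower. Slc2a2, which encodes GLUT2, had 16.3, 158 and 16.3 CPM in particle, 9.76, 10.4 and 5.85 CPM in inflamed and 398, 492 and 316 CPM in control islets (log2 fold change -5.54, SE 0.96, adjusted p = 0.00235 for inflamed against control). Between inflamed and control islets the transcript of GLUT1 thus rose and that of GLUT2 fell. Whether this was in the same cells cannot be told from RNA of whole islets. Slc2a2 and G6pc2 are also on the beta cell list.

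Ldha, lactate dehydrogenase A, had 41.2, 50.9 and 56.0 CPM in particle, 125, 92.8 and 236 CPM in inflamed and 11.4, 21.0 and 31.8 CPM in control islets. No 2 groups overlapped, and its log2 fold change was 2.82 (SE 0.41, adjusted p = 5.97e-04) for inflamed against control, 1.21 (SE 0.39, adjusted p = 0.0567) for particle against control and -1.62 (SE 0.40, adjusted p = 0.131) for particle against inflamed. Slc16a1, which encodes MCT1, had 7.18, 3.85 and 11.3 CPM in particle, 9.11, 14.1 and 14.1 CPM in inflamed and 0.371, 0.368 and 0.609 CPM in control islets (4.76, SE 0.48, adjusted p = 5.49e-05 for inflamed against control). Hk3, a hexokinase known from myeloid cells, had 36.9, 18.1 and 33.9 CPM in particle, 82.1, 88.1 and 57.5 CPM in inflamed and 2.93, 3.58 and 1.83 CPM in control islets (4.77, SE 0.36, adjusted p = 8.43e-06). The macrophage marker sum was likewise highest in inflamed islets. Between particle and control islets that sum overlapped (331 to 489 and 309 to 380 CPM), while Hk3 was higher in every particle library. Of the 9 tested macrophage markers, 1 was called higher and 1 lower in particle than in control islets (median log2 fold change 0.52). The part of macrophages in the Hk3 values was not tested.

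Of 9 tested genes of the HIF machinery, 2 were higher in inflamed than in control islets, Arnt and Arnt2, and 3 lower, Epas1, Cited2 and Siah2. Arnt, the partner of HIF-1 alpha, had 40.3, 31.4 and 63.8 CPM in particle, 88.8, 78.1 and 75.7 CPM in inflamed and 28.2, 36.5 and 27.3 CPM in control islets (log2 fold change 1.40, SE 0.26, adjusted p = 0.00190 for inflamed against control). Epas1, which encodes HIF-2 alpha and is prominent in endothelium, had 0.443, 2.85 and 1.87 CPM in particle, 3.07, 1.47 and 3.36 CPM in inflamed and 8.91, 9.51 and 5.95 CPM in control islets (-1.62, SE 0.56, adjusted p = 0.0408), beside the lower endothelial markers. Egln2 and Siah1a, also among the 4 highest of this list in FPKM, were not called. Of 28 tested further HIF targets, 12 were higher (among them Hmox1, Hilpda, Ero1a, Tfrc, Bhlhe40, Wsb1, Kdm3a, Rora, Gbe1, Angptl4 and Plod2) and 2 lower (Mxi1 and Pgf), with a median of 0.61, beside the same 20.7% and 19% of all tested genes. Hmox1, heme oxygenase 1, which oxidative stress raises too, had 2256, 895 and 934 CPM in particle, 864, 576 and 1039 CPM in inflamed and 57.6, 57.7 and 137 CPM in control islets (3.29, SE 0.49, adjusted p = 6.06e-04 for inflamed against control). Fam162a, Ddit4 and Pgm1 had the next highest FPKM of that list and were not called.

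Against control islets, particle islets had 2 of the 30 glycolysis and transport genes higher and 6 lower, 0 of 9 genes of the HIF machinery higher and 1 lower, and 6 of 28 further targets higher and 1 lower, where 11.4% and 5.92% of all tested genes were higher and lower. Between particle and inflamed islets none of the 67 was called, and 16 had an unadjusted p under 0.05, beside 15.1% of all tested genes.

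One control library stood apart from the others across the glycolysis and hypoxia genes. Control 3, the highest control in most rows, was the lowest in 1. Its CPM was at a median of 1.90 times the mean of the other 2 controls over the 33 rows, against 0.990 over all tested genes. The ratio was 2.56 for Tpi1, 2.48 for Slc2a1 and 2.34 for Eno1, but 0.934 for Hif1a and 1.02 for Vegfa. The other glycolysis and transport genes did not share the shift as a list. Their median deviation from the control mean was 0.02 on the log2 scale, against 0.52 for the 33 rows. In the same measure control 3 lay at 0.12 for the further HIF targets and -0.04 for the HIF machinery. Single genes of these lists differed. By the values above, Ldha, Slc16a1 and Hmox1 were highest in control 3 among the controls, and Slc2a2, Hk3, Arnt and Epas1 were lowest there. Without control 3, inflamed against control islets gave 12 higher and 6 lower rows, Gpi1, Tpi1, Pfkp and Egln3 being added, while the calls over all tested genes fell to 2278 higher (12.6%) and 2401 lower (13.3%). Particle against control without control 3 gave 9 higher and 1 lower rows, beside 887 higher (4.92%) and 228 lower (1.27%) of all tested genes. Among inflamed libraries, inflamed 3 was the highest in 18 of 33 rows (33.9% of all tested genes), and among particle libraries particle 1 was the highest in 17 of 33 (26.0% of all tested genes).

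**Figure D4:**
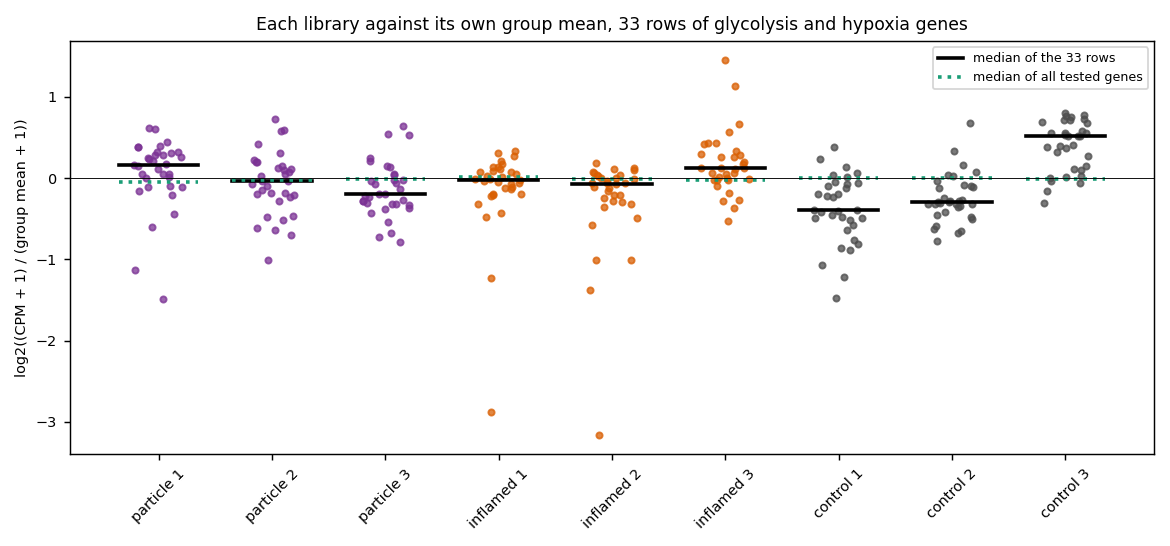
Log2 ratio of each library's CPM + 1 to its group's mean CPM + 1, with 1 point for each of the 33 rows, their median as a black line and the median of all tested genes as a dotted line. Control 3 has 29 of 33 rows above its group mean, where its median over all tested genes is -0.01.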

How the data were processed

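The submitters' processing notes name HTSeq, DESeq2 and GRCm39 (mm39) without versions. The deposited counts are raw whole numbers of reads per gene, for 56748 genes in 9 libraries. The deposited FPKM values equal count over gene length and over 1 constant per library, which was 0.860 to 1.19 times the library total. The control columns carry no group word and were matched as the 3 left once the inflamed and particle columns were matched by name. How replicates were obtained is not stated, so a p-value reflects library-to-library spread only, part of which may be technical. Chi-square per degree of freedom between replicates was 43.4 to 207, so no pair of libraries was a repeat of the same counts.

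The count test was run in edgeR 4.0.16 (R 4.3.3): filterByExpr with a smallest count of 10 (17276 genes kept), TMM factors, robust quasi-likelihood models on all 9 libraries, and Benjamini-Hochberg adjustment over all genes tested. The call threshold was an adjusted p of 0.05. CPM used TMM-scaled totals. An SE is the fold change divided by the square root of its F statistic. A count of 0 is given with the limit of 3 counts. The procedure was tested on simulated data. Alternatives were other scalings, other filters, DESeq2 1.42.0, limma 3.58.1 on log2(FPKM + 1) and log2(FPKM + 0.1), fits on 2 groups, a replicate block and leaving out each library. Motifs were searched in the RefSeq promoter table, whose build, GRCm38.p6, is not that of the counts. The 32 members, the pathway lists and the marker lists were chosen with earlier results of these data known. All members are named. Other pathway genes are named where called in any comparison or among the 4 of their list with the highest mean FPKM, apart from some that are not reported here.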

Additional observations from a re-analysis of the deposited data

How the results depend on the processing

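Among members with an unadjusted p under 0.05 or no overlap between groups in a comparison, no fold change changed sign in any of 19 alternative settings. Between inflamed and control islets, where 8 members were higher and 6 lower, library totals without TMM factors gave 13 higher and 6 lower, and leaving out a library gave 5 to 12 higher and 5 to 6 lower. Over all tested genes, library totals called 24.5% higher and 15.1% lower. Leaving out a library called 12.6 to 21.2% of them higher and 13.3 to 19.9% lower. In particle against inflamed islets, where 0 were called, DESeq2 called 1 (Ankrd37) and leaving out a library gave 0 to 1 (Pfkm, without particle 3). DESeq2 called 2.82% of all tested genes higher and 1.71% lower there, and the fit without particle 3 called 3.56% and 1.71%. Between particle and control islets, where 5 were higher and 2 lower, library totals gave 11 and 1, the missing count filter gave 4 lower, DESeq2 gave 4 lower, and leaving out a library gave 4 to 9 higher and 1 to 4 lower. The 9 were without control 3, and without particle 2 there were 8 higher and 4 lower. Over all tested genes, library totals called 18.5% higher and 3.46% lower, no count filter 5.91% and 3.69%, and DESeq2 13.6% and 11.2%. Leaving out a library called 4.92 to 13.4% of them higher and 1.24 to 11.8% lower. These shares were 4.92% and 1.27% without control 3, and 13.4% and 11.8% without particle 2. Library totals moved the median log2 fold change of all genes by 0.18 for inflamed and 0.27 for particle against control, which bears on the extra higher calls. Where a left-out library moved a count, the cause was not tested.

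A fit with the replicate number as a block gave 9 higher and 6 lower members between inflamed and control islets (Tpi1 added), 0 between particle and inflamed, and 5 and 2 between particle and control. Over all tested genes it called 18.2% higher and 17.2% lower, 0% either way, and 9.42% and 5.61% in these comparisons. Same-numbered libraries correlated at -0.18 to 0.21 in their deviations from group means, not all over 0.1, so the numbers were not taken to pair the samples.

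For the other members the sign differed from the one plotted in 22 of 247 values between inflamed and control, 35 of 532 between particle and inflamed and 13 of 323 between particle and control, at adjusted p-values of 0.204, 0.228 and 0.706 or more. Low counts limit Car9, Adm and Hk2 in control islets most.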
